A study of Mus musculus with 40 samples.

Results

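Of 3284 mouse genes that a nylon filter array named through a spot with a single gene symbol, 66 carry symbols of the vesicle traffic machinery and its small GTPases, and their levels are described here over 13 groups of mouse cells and tissues. They were taken by symbol alone: Rab, Arf and Arl GTPases, the SNAREs (Vamp, Stx, Gosr and Vti1), COP coat subunits, AP adaptors, TRAPP tethers, Sec genes, sorting nexins, Vps genes and Snf8. These symbols matched 70 of the 5760 spots, and for the 4 genes with 2 spots (Arf4, Rab8b, Snf8 and Trappc13) the spot that was brighter on average was used. A symbol is not always a role: Rab11fip4, Rab11fip5, Rab3gap2 and Rab3il1 are effectors or regulators of Rabs, Arl14ep is an effector of an Arl protein, and Sec1 is a fucosyltransferase gene that shares only its letters with the secretory genes.

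Vesicle traffic moves membrane and cargo between the endoplasmic reticulum, the Golgi, endosomes, lysosomes and the cell surface. Coats such as COPI, COPII and the AP complexes bud vesicles, Arf and Rab GTPases mark the membranes, tethers such as TRAPP capture the carriers, and SNAREs fuse them with their target. Sorting nexins and the ESCRT complexes then sort cargo on endosomes, either for recycling or for breakdown in lysosomes. In adipocytes the route is known for delivering glucose transporters to the surface, in macrophages for phagocytosis and lysosomal delivery, and in liver for the secretion of plasma proteins.

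The groups were as follows. The primary cells and tissues were liver (2 samples), tibialis muscle (2), peritoneal macrophages that adhered during 24 h in culture (3), stroma-vascular cells of inguinal fat that adhered within 24 h of plating (3), and adipocytes isolated from the same depot with collagenase (3). The differentiated cultures were C2C12 cells kept for 7 days after confluence in 4% horse serum to form myotubes (2), and 3T3-F442A cells kept for 7 days after confluence with rosiglitazone, an agonist of the adipogenic receptor PPARγ, to form adipocytes (3). The growing cultures were C2C12 myoblasts (3), C3H-10T1/2 mesenchymal cells (3), Raw 264 (3) and J774 (2) macrophage lines, ZIN40 embryonic stem (ES) cells with the cytokine LIF (3), and 4 preadipocyte lines counted as 4 replicates (3T3-L1 with 2 samples that were averaged, 3T3-F442A, Ob1774 and Hgfu). All cultured groups other than the myotubes, with the plated primary cells among them, were in 10% serum. The labels did not give strain, age or sex of the mice, and each line is a single clone or stock. They also did not state whether the samples of a group were separate animals or cultures, so every p-value reflects sample-to-sample spread that may be technical only.

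Each sample was 1 array of spotted cDNA. The median intensity of the 37 arrays ranged from 18871 to 132228, and the mean correlation of an array with the others of its group lay between 0.807, for the pair of liver arrays, and 0.953. No array had a value below 7675, so background is part of every value and no gene is at 0. The arrays of 3 further samples, ES cells grown without LIF, hold values of another kind and entered no test. The measured markers of muscle (7 genes) and liver (5 genes) stood with their tissues. In kU, a unit of 1000 intensity units, summed levels of the muscle list were 2362 to 2429 kU in tibialis and 1103 to 1311 kU in C2C12 myotubes, against 625 kU or less in the other groups. Those of the liver list were 807 and 2498 kU in liver, against 477 kU or less elsewhere. The 5 measured macrophage markers summed to 813 to 994 kU in peritoneal macrophages, 486 to 812 kU in Raw 264 cells and 395 to 404 kU in J774 cells, against 344 kU or less elsewhere. The 7 adipocyte markers summed to 902 to 1104 kU in 3T3-F442A adipocytes and 641 to 909 kU in isolated adipocytes, against 655 kU or less elsewhere. None of 8 pluripotency markers was measured, so the ES label was not checked.

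The highest group mean of a gene was between 1.21 and 7.11 times its lowest (median 1.63). The median distance between these means was 0.43 on the log2 scale with the offset given below, against 0.40 over all spots, and it ran from 0.15 to 2.46 for Snf8. A moderated F test over the 13 groups (limma, Benjamini-Hochberg adjusted over all 5760 spots) called 12 of the 66, or 18.2%, where it called 9.84% of all spots and 10.1% of the named genes. With the 5th percentile of each array subtracted as background it called 5 of the 66. Of the 66, 42 were brighter on average than the median spot, and these shares were not adjusted for brightness. The 12 were Copz2 and Ap3m1 among 10 coat and adaptor genes, Gosr2, Vamp2 and Vti1b among 6 SNAREs, Snf8, Snx9, Snx12, Snx13 and Vps37c among 15 sorting nexin, Vps and Snf8 genes, Arf4 among 4 Arf and Arl genes, and Trappc13 among 4 TRAPP genes. None of the 17 Rab GTPases, the 4 Rab effectors and regulators or the 6 translocation and other Sec genes was called. Levels below are quantile-normalized intensities in kU, and they are set side by side for the same spot only, since spots of different genes are not on one scale. Fold changes are differences of log2(intensity + 38.4 kU), which understates the change of dim spots.

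**Figure D1:**
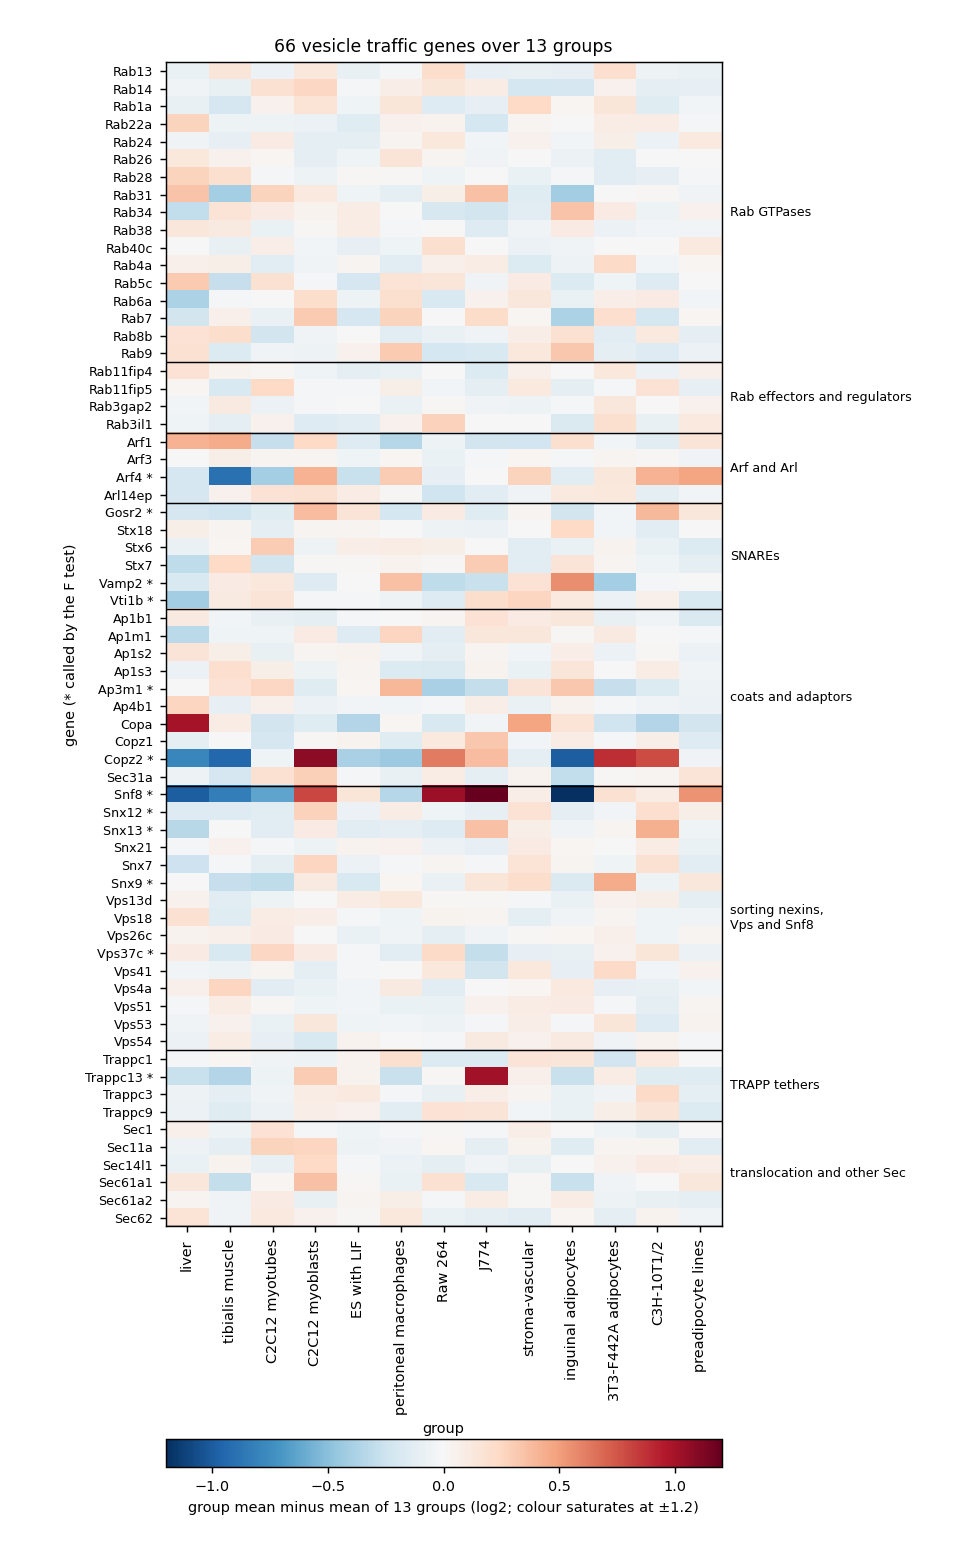
Group means of the 66 vesicle traffic genes, ordered by role, minus each gene's mean over the 13 groups (log2 units; red is above and blue below the gene's own mean). Most rows are pale, and the rows of Copz2 and Snf8 hold the strongest colours.

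Copz2, the zeta-2 subunit of the COPI coat that carries vesicles from the Golgi back to the endoplasmic reticulum, had the smallest F-test p of the 66 (adjusted p = 9.32e-06). It averaged 466 ± 117 kU in C2C12 myoblasts (SD, n = 3), 412 ± 145 in 3T3-F442A adipocytes (n = 3), 401 ± 214 in C3H-10T1/2 cells (n = 3), 337 ± 116 in Raw 264 cells (n = 3) and 267 ± 47.5 in J774 cells (n = 2). At the other end stood 98.2 ± 1.60 in liver (n = 2), 85.5 ± 28.0 in tibialis muscle (n = 2) and 80.9 ± 15.5 in isolated adipocytes (n = 3). The spread within the upper groups was wide, so neighbours there are not separated: the 3 C3H-10T1/2 samples had 363, 632 and 209 kU. All 3 isolated adipocyte samples, both liver samples and both tibialis samples lay at or below 105 kU, and all samples of the 5 upper groups at or above 208 kU.

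The region before the annotated start of Copz2 (RefSeq, build GRCm38.p6, forward strand) is shown because this gene had the smallest F-test p of the 66. Those of Gosr2 (reverse strand) and Arf4 (forward strand), both described below, are shown as well and were picked without a fixed rule. Their group means had correlations with those of Copz2 of 0.71 and 0.58 over the 13 groups, and of 0.60 with each other. Snf8, with 0.77 the most like Copz2, is not shown, nor is Snx12, with 0.57 to Copz2, 0.75 to Gosr2 and 0.81 to Arf4. These correlations are a description over arrays that the genes share. Each window is the 250 bases before the start, 5′ to 3′ on the gene's strand. Capitals mark matches on either strand to the GC box letters GGGCGG, the cyclic AMP response element TGACGTCA and the CCAAT box, whose reverse reads ATTGG.
Copz2, chr11:96849626-96849875: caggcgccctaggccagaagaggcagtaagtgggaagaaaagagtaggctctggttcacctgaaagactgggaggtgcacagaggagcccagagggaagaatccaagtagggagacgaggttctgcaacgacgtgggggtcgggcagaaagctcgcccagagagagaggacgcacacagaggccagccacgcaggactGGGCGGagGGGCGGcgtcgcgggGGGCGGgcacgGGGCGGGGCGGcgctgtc
Gosr2, chr11:103697724-103697973: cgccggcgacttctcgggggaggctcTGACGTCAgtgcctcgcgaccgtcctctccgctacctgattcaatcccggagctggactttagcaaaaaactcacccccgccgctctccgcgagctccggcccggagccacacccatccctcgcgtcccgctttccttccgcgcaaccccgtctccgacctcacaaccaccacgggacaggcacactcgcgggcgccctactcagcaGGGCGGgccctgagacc
Arf4, chr14:26637884-26638133: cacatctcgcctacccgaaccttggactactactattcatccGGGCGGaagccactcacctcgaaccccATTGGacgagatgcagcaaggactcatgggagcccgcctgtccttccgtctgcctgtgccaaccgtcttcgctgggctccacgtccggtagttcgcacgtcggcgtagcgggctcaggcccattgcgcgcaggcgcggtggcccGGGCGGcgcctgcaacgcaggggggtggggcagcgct
The Copz2 window holds 5 GC boxes, the last pair of which share a base. The Gosr2 window holds 1 GC box and 1 cyclic AMP response element, and the Arf4 window 2 GC boxes and 1 CCAAT box. GGGCGG is found in 32.9% of the 27025 promoter windows of this length and in 35 of the 54 windows that matched one of the 66 genes. TGACGTCA was found in 1.62% and in 1 of 54, CCAAT in 34.5% and in 21 of 54, and the E-box CACGTG, which none of the 3 windows holds, in 6.05% and in 5 of 54. The median GC content was 62.6% in the 54 windows and 52% in all windows. A match describes letters only, and factor binding was not measured. The Copz2 gene (chr11:96849876-96861203) also spans a microRNA, mmu-miR-152-3p, which begins 563 bases after the start of Copz2 (chr11:96850439-96850459) and is printed with its seed (bases 2 to 8) in capitals. It was not measured on these arrays.
mmu-miR-152-3p: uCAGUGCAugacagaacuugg

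Ap3m1, the mu subunit of the AP-3 adaptor that sorts cargo towards lysosomes, was the other coat or adaptor gene called (F-test adjusted p = 0.0113). It had 269, 281 and 257 kU in peritoneal macrophages, and 275, 259.6 and 224 kU in isolated adipocytes. At the low end were Raw 264 cells with 123, 134 and 164 kU, J774 cells with 125 and 183 kU, and 3T3-F442A adipocytes with 180.1, 136 and 146 kU. The primary macrophages and adipocytes thus lay above each sample of these 3 cultures. Primary and cultured samples did not part throughout: C2C12 myotubes had 249 and 225 kU, and liver had 156 and 238 kU. Of the remaining 8 coat and adaptor genes, Copa, the alpha subunit of COPI, had the largest distance between group means (1.35 on the log2 scale, F-test adjusted p = 0.0588), and it is singled out after its values were seen. Liver replicate 1 had 443 kU and liver replicate 2 had 63.9 kU, while all other samples had 141 kU or less.

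Among the SNAREs, Gosr2, a Golgi SNARE of the route from the endoplasmic reticulum, had the second smallest F-test p (adjusted p = 1.11e-04). It averaged 86.4 ± 14.6 kU in C3H-10T1/2 cells (SD, n = 3) and 84.4 ± 6.05 in C2C12 myoblasts (n = 3), then 67.5 ± 13.2 in ES cells (n = 3) and 66.2 ± 6.26 in the preadipocyte lines (n = 4). The lowest means, 42.0 ± 3.27 in tibialis (n = 2), 42.9 ± 4.97 in isolated adipocytes (n = 3), 43.7 ± 5.36 in peritoneal macrophages (n = 3) and 43.8 ± 2.20 in liver (n = 2), did not differ beyond their spread. Every sample of C3H-10T1/2 cells and of myoblasts, at 73.8 kU or more, lay above every sample of these last 4 groups, at 49.7 kU or less.

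Vamp2, the SNARE of secretory vesicles and of the vesicles that carry the insulin-responsive glucose transporter, was also called (F-test adjusted p = 0.00914). It was highest in isolated adipocytes (198 ± 16.2 kU, SD, n = 3) and peritoneal macrophages (169 ± 27.1, n = 3), and lowest in J774 cells (96.7 ± 27.7, n = 2), Raw 264 cells (92.4 ± 6.43, n = 3) and 3T3-F442A adipocytes (83.3 ± 4.49, n = 3). Over the 13 group means, the gene most like Vamp2 among the 12 called was Ap3m1 (Pearson r = 0.90, a description over shared arrays). Vti1b, a SNARE of late endosomes and lysosomes, averaged 106 ± 12.4 kU in stroma-vascular cells (n = 3), against 52.6 ± 18.8 in liver (n = 2; F-test adjusted p = 0.0180). That call was lost without liver replicate 1 (adjusted p = 0.0575), which had 39.4 kU against 65.9 in the other liver sample. The syntaxins Stx18, Stx6 and Stx7, target-membrane SNAREs, were not called.

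Snf8, a subunit of the ESCRT-II complex that sorts ubiquitin-tagged cargo on endosomes, had the widest range of the 66 genes (F-test adjusted p = 0.00314). It averaged 759 ± 75.0 kU in J774 cells (SD, n = 2), 667 ± 54.9 in Raw 264 cells (n = 3) and 574 ± 119 in C2C12 myoblasts (n = 3). It averaged 157 ± 21.4 in tibialis (n = 2), 145 ± 80.8 in liver (n = 2) and 107 ± 11.9 in isolated adipocytes (n = 3). Groups between these scattered widely, with 447, 666 and 109 kU in C3H-10T1/2 cells and 83.3 and 371 kU in myotubes. The dimmer spot of Snf8 followed the brighter one over the 13 group means (r = 0.87) and was called as well (F-test adjusted p = 0.0260). The dimmer spots of Arf4 (r = 0.14), Trappc13 (r = -0.01) and Rab8b (r = -0.09), however, did not follow theirs and were not called.

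The other 4 called genes of endosomal sorting varied less. Snx9, a sorting nexin that bends membrane in endocytosis, was highest in 3T3-F442A adipocytes (93.3 ± 8.17 kU, n = 3) and lowest in C2C12 myotubes (40.5 ± 8.99, n = 2; F-test adjusted p = 0.0120). Snx13 averaged 104 ± 28.4 kU in C3H-10T1/2 cells (n = 3), against 44.9 ± 4.77 in liver (n = 2; adjusted p = 0.0278). Vps37c, an ESCRT-I subunit, averaged 57.9 ± 14.4 in C2C12 myotubes (n = 2), against 27.8 ± 5.51 in J774 cells (n = 2; adjusted p = 0.0317). Snx12 averaged 73.2 ± 14.5 in C2C12 myoblasts (n = 3), against 44.1 ± 6.55 in tibialis (n = 2; adjusted p = 0.0476). The calls of these last 3 rest on few arrays: of the 37 fits that each left out 1 array, Snx13 lost its call in 4, Vps37c in 6 and Snx12 in 29.

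Arf4, a GTPase of the Golgi, averaged 190.3 ± 61.5 kU in the preadipocyte lines (n = 4), 178 ± 37.8 in C2C12 myoblasts (n = 3) and 175 ± 8.67 in C3H-10T1/2 cells (n = 3), against 47.8 ± 8.24 in tibialis (n = 2; F-test adjusted p = 0.00339). The tibialis samples, at 42.0 and 53.6 kU, were below every sample of the other groups. Trappc13, a subunit of a TRAPP tether, was highest in J774 cells, with 246 and 173 kU, against 136 kU or less in each sample of the other groups (F-test adjusted p = 0.00255). That call was lost without J774 replicate 1 (adjusted p = 0.0639), and the second Trappc13 spot did not show it (F-test adjusted p = 0.470). The tethers Trappc1, Trappc3 and Trappc9 were not called.

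**Figure D2:**
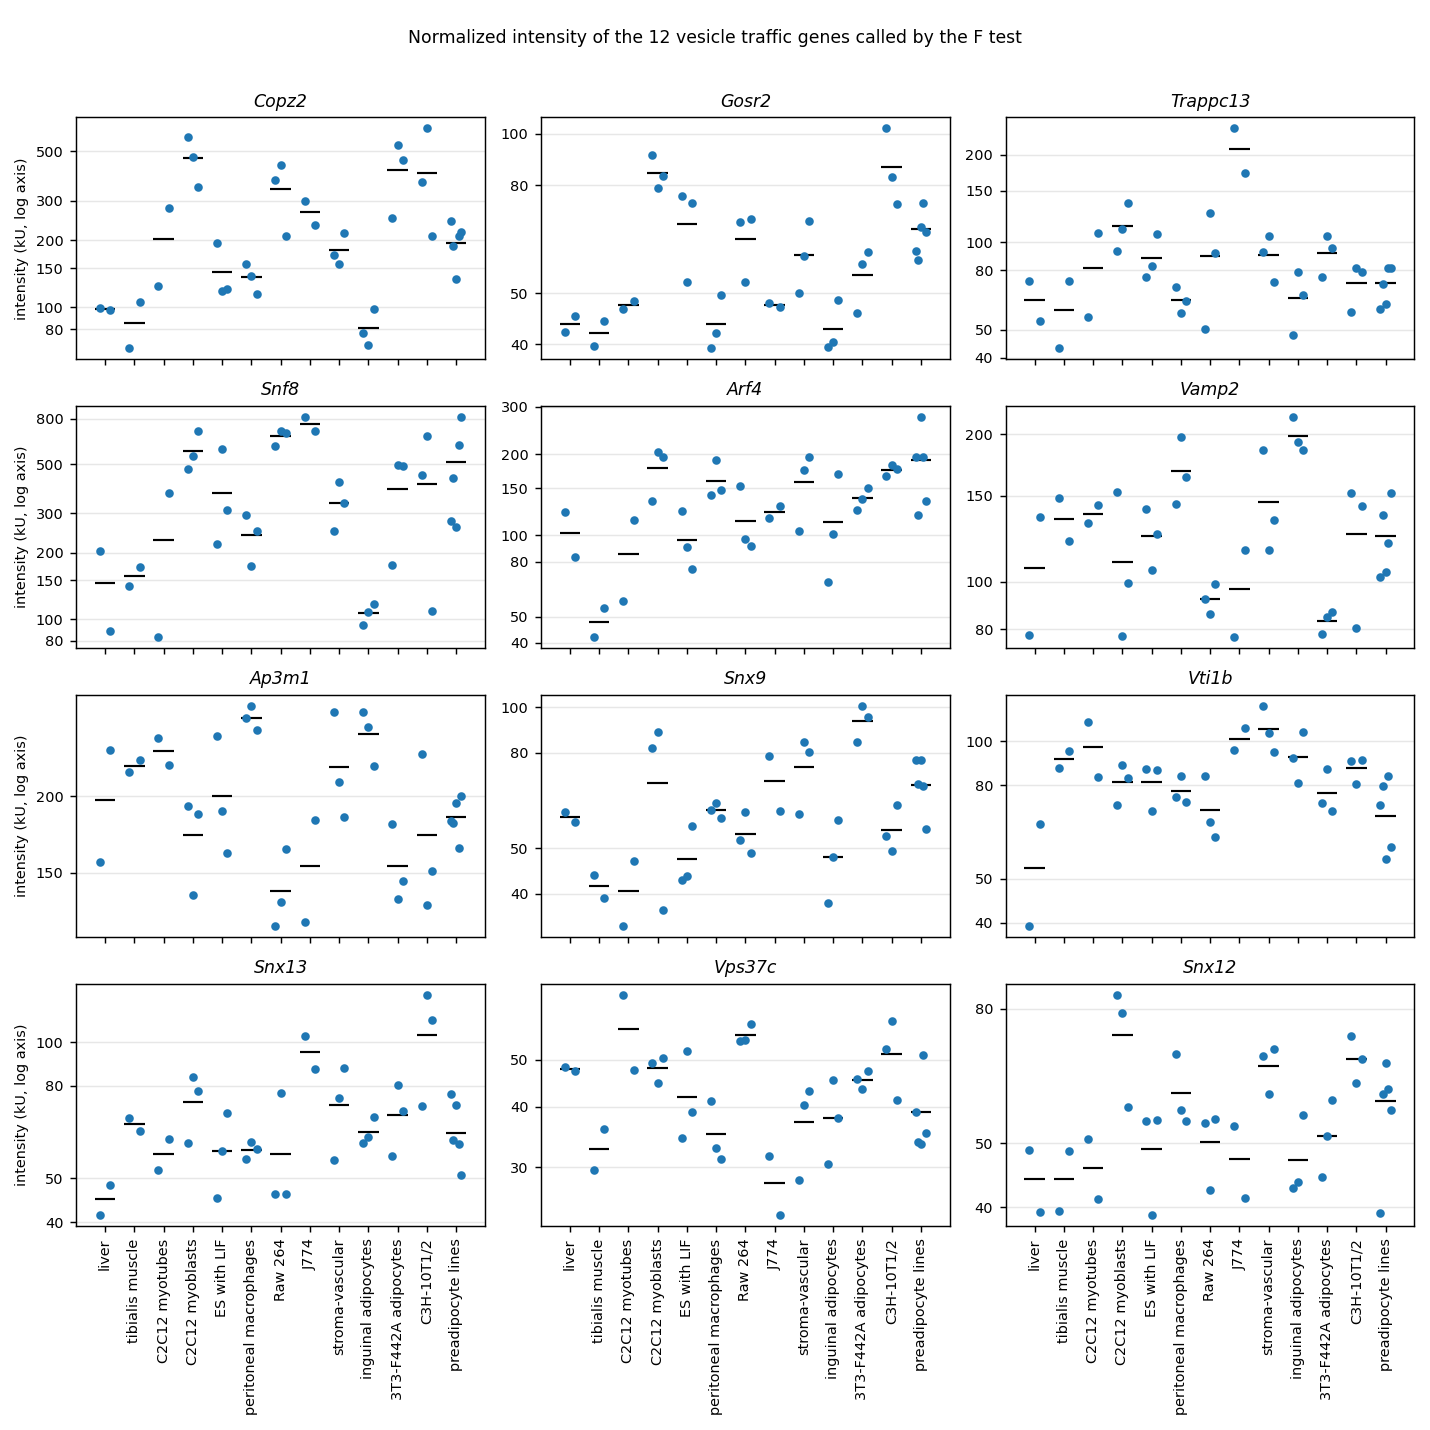
Normalized intensity (kU, log axis) of the 12 genes called by the F test in each of the 37 samples, with bars at the group means (the 2 samples of 3T3-L1 counted as 1 line). Copz2 is low in liver, tibialis and inguinal adipocytes, Vamp2 and Ap3m1 are high in peritoneal macrophages and inguinal adipocytes, and Trappc13 is high in the 2 J774 samples.

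The 17 Rab GTPases spanned 0.25 to 0.77 on the log2 scale between their highest and lowest group means. Rab5c, the early endosome GTPase, came nearest to a call (F-test adjusted p = 0.0519), followed by Rab7, of late endosomes, and Rab31 (0.125 and 0.131). The 4 Rab effectors and regulators spanned 0.21 to 0.46, and the 6 translocation and other Sec genes, among them the translocon subunits Sec61a1, Sec61a2 and Sec62, spanned 0.22 to 0.64. These genes were measured with the same arrays as the called ones, and a p above the threshold does not show that their levels were equal. The 54 genes not called had F-test adjusted p-values between 0.0519 and 0.996.

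The F test does not say which groups differ, so 12 comparisons of groups were chosen and made in the same fit. The labels do not set these groups against each other. They gave 11 calls in 7 of the 66 genes, all in 4 of the 12 comparisons. Groups recur among the comparisons, so these are not independent of each other. Samples of such small groups often do not overlap: this held for 24 of the 66 genes in liver over tibialis. It held for 18 in isolated over 3T3-F442A adipocytes, 18 in stroma-vascular cells over isolated adipocytes and 18 in myotubes over myoblasts. In peritoneal macrophages over the macrophage lines it held for 11. A lack of overlap is thus given below as a description only.

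Adipocytes isolated from inguinal fat differed from 3T3-F442A adipocytes made in culture in 4 of the 66 genes, where 2.53% of all spots were called (1.28% higher and 1.25% lower). Vamp2 and Ap3m1 were higher in the isolated cells, and Copz2 and Snx9 were lower. Copz2 had 76.7, 68.0 and 98.0 kU in isolated adipocytes, against 251, 530.5 and 456 kU in 3T3-F442A adipocytes, and the groups did not overlap (log2 fold change -1.87 ± 0.28 SE, adjusted p = 4.86e-04). Vamp2 had 217, 193 and 186 kU in isolated adipocytes, against 78.3, 84.7 and 86.9 kU in 3T3-F442A adipocytes, again without overlap (0.96 ± 0.18, adjusted p = 0.00199). Snx9 had 38.2, 47.9 and 57.4 kU in isolated adipocytes, against 84.4, 100.4 and 95.1 kU in 3T3-F442A adipocytes (-0.62 ± 0.14, adjusted p = 0.0133), where every cultured sample was the higher. Ap3m1, whose samples are given above, was also higher without overlap (0.60 ± 0.16, adjusted p = 0.0426). Snf8, singled out after its values were seen, had the second largest difference without being called (-1.44 ± 0.44, adjusted p = 0.0723): it averaged 107 kU in isolated adipocytes, against 387 kU in 3T3-F442A adipocytes, and the samples did not overlap.

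Copz2 and Vamp2 kept these calls whichever of the 6 arrays was left out. Snx9 lost its call in 3 of those 6 fits (without 3T3-F442A adipocyte replicate 2 or 3 or isolated adipocyte replicate 1) and Ap3m1 in 5 (in all but the one without 3T3-F442A adipocyte replicate 1). Without 3T3-F442A adipocyte replicate 1, 7 genes were called, and with the 5th percentile of each array subtracted only Copz2 and Vamp2 were. Over 12 alternatives in normalization, offset, background, spots and fit, the fold change lay between -2.92 and -1.24 for Copz2, 0.57 and 1.70 for Vamp2, -2.16 and -0.29 for Snx9, and 0.40 and 0.88 for Ap3m1. By role, the median fold change was 0.13 for the 10 coat and adaptor genes, 0.15 for the 6 SNAREs, -0.10 for the 17 Rabs and -0.07 for the 15 sorting nexin, Vps and Snf8 genes, against 0.01 over all spots. Timp2, the one fibroblast and matrix marker measured, moved with Copz2: it was 43.0 to 61.4 kU in isolated adipocytes, against 211 to 388 kU in 3T3-F442A adipocytes (called lower). The one lymphocyte marker, Cd79b, was 154 to 204 kU in isolated adipocytes, against 74.5 to 112 kU in 3T3-F442A adipocytes (called higher). In cultured lines it reached 173 kU in C3H-10T1/2 and 159 kU in ES cells, so its level alone does not show lymphocytes. The part of other cells in these differences was not tested. In samples of many cells, fewer cells of a type and less RNA per cell cannot be told apart.

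Peritoneal macrophages differed from the macrophage lines (the mean of Raw 264 and J774) in 5 of the 66 genes, where 2.73% of all spots were called (1.49% higher and 1.23% lower). Ap3m1 and Vamp2 were higher in the primary cells, and Trappc13, Snf8 and Copz2 were lower. Snf8 had 294, 173 and 251 kU in peritoneal macrophages, against 604, 706 and 691 kU in Raw 264 and 812 and 706 kU in J774 cells (-1.45 ± 0.40 SE, adjusted p = 0.0407), with no overlap. Copz2 had 156, 138 and 115 kU in peritoneal macrophages, against 372, 432 and 208 kU in Raw 264 and 300.4 and 233 kU in J774 cells (-0.93 ± 0.26, adjusted p = 0.0423), again with no overlap. Trappc13 had 70.0, 56.8 and 62.9 kU in peritoneal macrophages, against 50.2, 126 and 92.0 kU in Raw 264 and 246 and 173 kU in J774 cells (-0.78 ± 0.17, adjusted p = 0.00593). In that gene Raw 264 replicate 1 lay below the primary cells, so the groups overlap.

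Ap3m1 was higher in peritoneal macrophages by 0.74 ± 0.15 (adjusted p = 0.00372). Vamp2 had 144, 198 and 164 kU in peritoneal macrophages, against 92.4, 86.1 and 98.9 kU in Raw 264 and 77.1 and 116 kU in J774 cells (0.64 ± 0.16, adjusted p = 0.0230). Both genes were without overlap. With the 5th percentile of each array subtracted none of the 5 was called (adjusted p between 0.0874 and 0.193), and with median scaling only Trappc13 was. Over the same 12 alternatives, the fold change lay between -1.75 and -1.12 for Snf8, -1.32 and -0.63 for Copz2, -1.55 and -0.37 for Trappc13, 0.50 and 1.07 for Ap3m1, and 0.38 and 1.15 for Vamp2. Without J774 replicate 1 none of the 5 was called, without peritoneal macrophage replicate 2 only 1 and without replicate 3 only 2. Copz2 kept its call in 1 of the 8 fits that left out an array (without Raw 264 replicate 3) and Snf8 in 1 (without Raw 264 replicate 1), while Ap3m1 kept it in 7 (all but the one without J774 replicate 1). The dimmer spot of Snf8 had the same sign and missed the threshold (-0.91 ± 0.29, adjusted p = 0.0830), and that of Trappc13 had the opposite sign and was not called (0.19 ± 0.16, adjusted p = 0.658). The summed macrophage markers were 813 to 994 kU in peritoneal macrophages, against 395 to 812 kU in the lines, with 3 of 5 called higher. The part of this in the result was not tested.

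**Figure D3:**
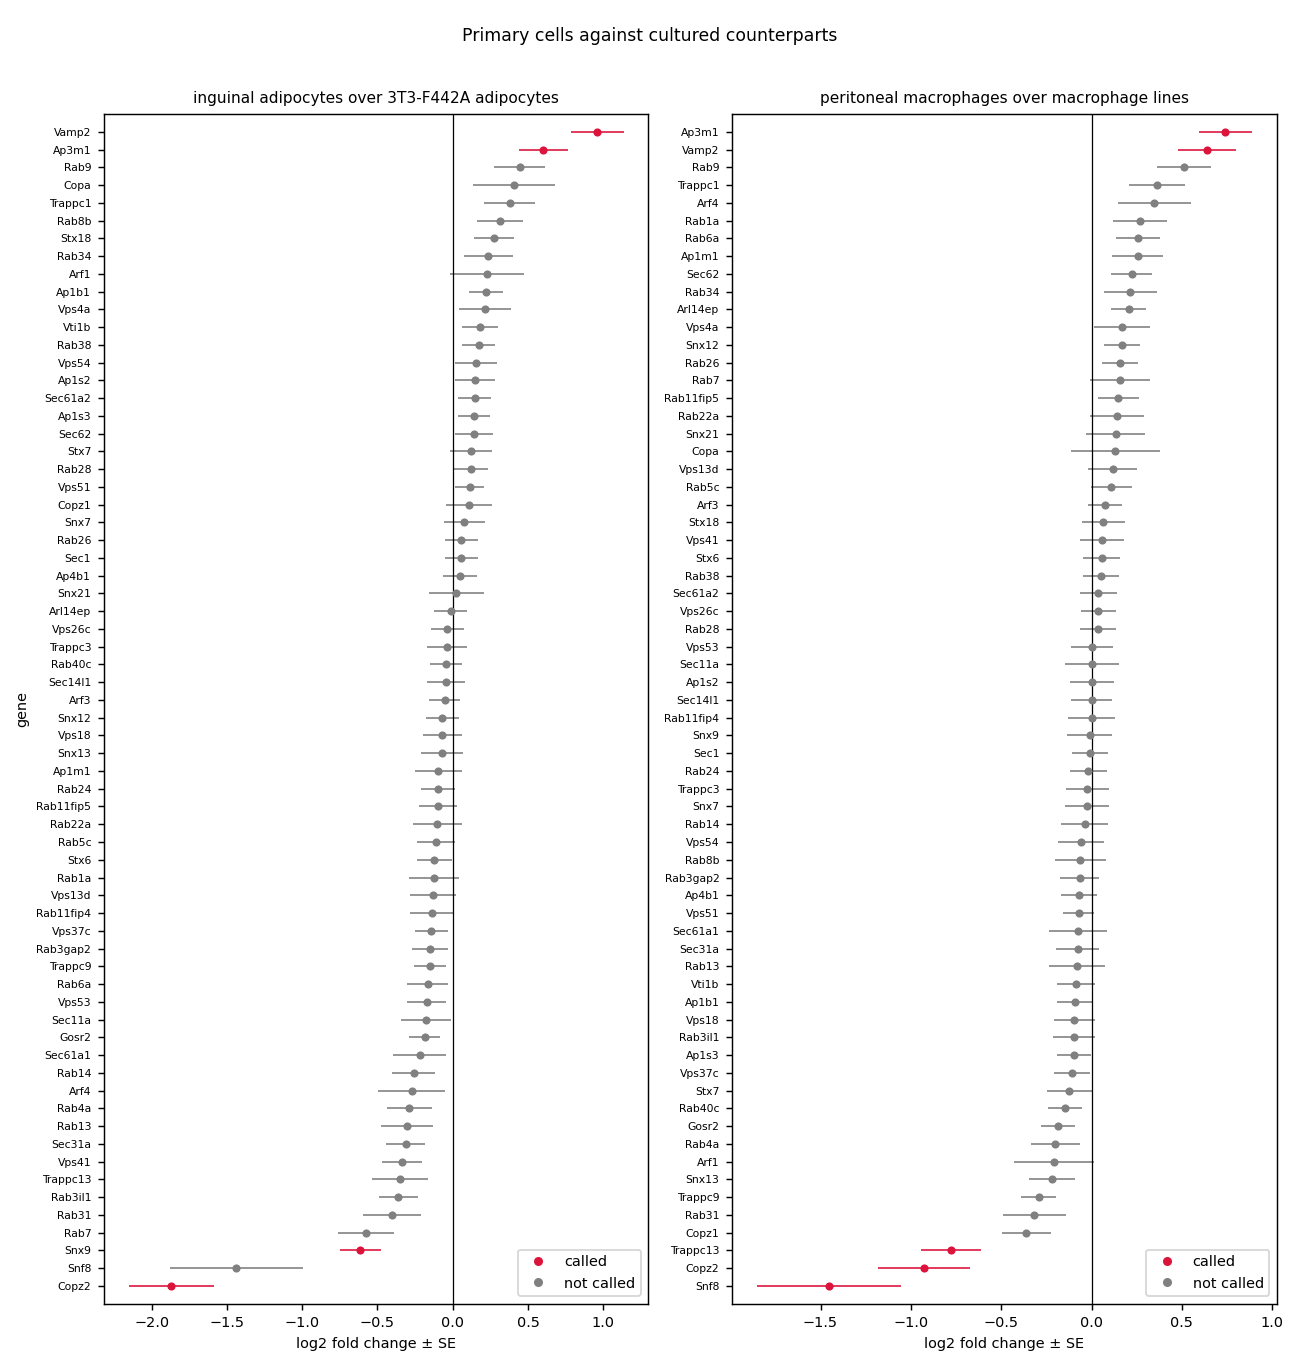
Log2 fold change with its standard error for each of the 66 genes, in inguinal adipocytes over 3T3-F442A adipocytes (left) and in peritoneal macrophages over macrophage lines (right), with called genes in red. Vamp2 and Ap3m1 stand at the upper end of both panels and Copz2 at or near the lower end of both; the 2 panels share no sample but come from 1 normalization and 1 fit.

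The macrophage lines over the mesenchymal lines (the mean of C3H-10T1/2 and the preadipocyte lines) gave 1 call, Trappc13, where 0.781% of all spots were called. It had the macrophage line values given above, against 57.3, 81.7 and 78.7 kU in C3H-10T1/2 cells and 59.0, 71.6, 61.4, 81.7 and 81.6 kU in the preadipocyte samples (0.66 ± 0.13, adjusted p = 0.0118). Both J774 samples were above all mesenchymal ones, and Raw 264 replicate 1 was below all of them. Without J774 replicate 1 the call was lost (0.55, adjusted p = 0.224), over 11 alternatives the fold change lay between 0.35 and 1.21, and the second spot gave -0.11 ± 0.13 (adjusted p = 0.774).

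Liver over tibialis muscle gave 1 call, where 1.68% of all spots were called. Rab5c had 87.4 and 75.6 kU in liver, against 41.7 and 39.9 kU in tibialis, without overlap (0.60 ± 0.15, adjusted p = 0.0329). The call was kept without liver replicate 2, where 4 genes were called, and lost without liver replicate 1 or either tibialis sample (adjusted p between 0.162 and 0.230). Over 11 alternatives the fold change lay between 0.27 and 2.49. The summed liver markers were 807 and 2498 kU in liver, against 371 and 395 kU in tibialis, and the erythroid marker Hbb-b1 was 102 and 453 kU in liver, against 74.6 and 109 kU in tibialis.

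**Figure D4:**
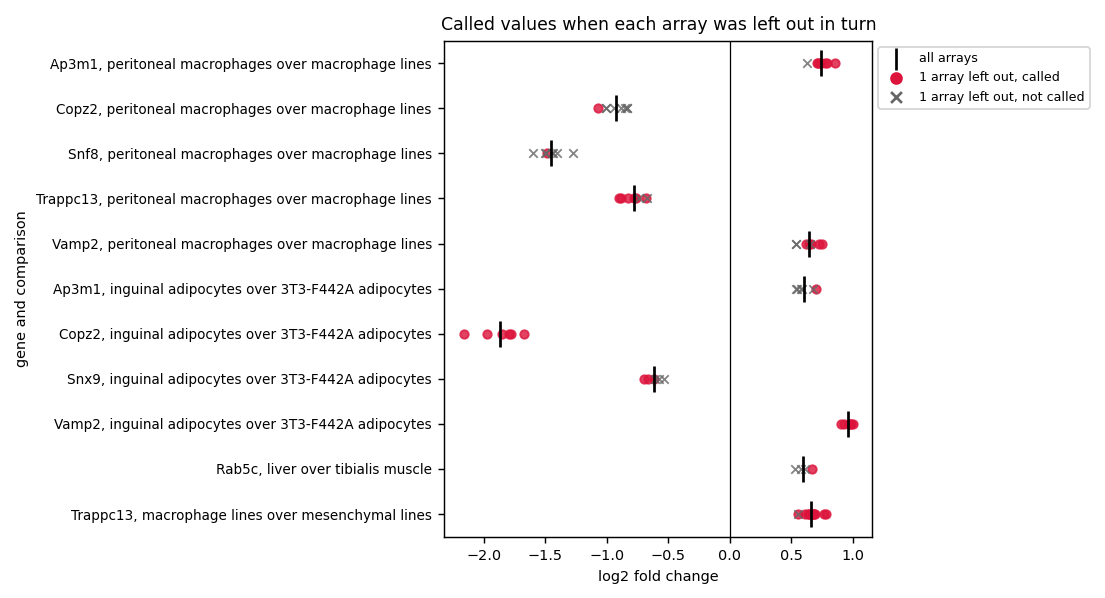
The 11 called log2 fold changes with all arrays (vertical bars) and with each array of the compared groups left out in turn (red points where the call was kept, grey crosses where it was lost). No value changed sign, Copz2 and Vamp2 in inguinal adipocytes over 3T3-F442A adipocytes were called in each fit, and each of the other 9 lost the call in at least 1 fit.

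Stroma-vascular cells over isolated adipocytes of the same fat gave no call in limma (0.503% of all spots called), with 12 of the 66 genes at an unadjusted p under 0.05, against 8.51% of all spots. The replicate numbers, which the labels do not describe as pairs, were also used as a block in a fit of these groups alone. That fit called 5 of the 66, where 4.29% of all spots were called (2.92% higher and 1.37% lower). Without the block all groups shared the fit, so these fits differ in more than the block. Snf8 had 249, 416 and 335 kU in stroma-vascular cells, against 94.1, 108 and 118 kU in adipocytes. Its fold change was 1.34 ± 0.11 (SE) with the block (adjusted p = 2.73e-04) and 1.34 ± 0.44 without it (adjusted p = 0.249). Copz2 had 172, 157 and 215 kU in stroma-vascular cells, against 76.7, 68.0 and 98.0 kU in adipocytes. Its fold change was 0.88 ± 0.08 with the block (adjusted p = 5.00e-04) and 0.88 ± 0.28 without it (adjusted p = 0.220). Every stroma-vascular sample was the higher in both genes. With the block Snx9 (0.39 ± 0.09, adjusted p = 0.0395) and Rab7 (0.40 ± 0.09, adjusted p = 0.0457) were also called higher and Arf1 (-0.43 ± 0.10, adjusted p = 0.0455), a GTPase that recruits COPI, lower. Timp2 was 73.6 to 149 kU in stroma-vascular cells, against 43.0 to 61.4 kU in adipocytes, and its part in this was not tested.

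Both differentiation series gave no call, and Copz2 stood among the 2 smallest p-values in each. In 3T3-F442A adipocytes over the preadipocyte lines, 0.139% of all spots were called, and 4 of 66 genes and 9.62% of all spots had an unadjusted p under 0.05. Copz2 had 251, 530.5 and 456 kU in adipocytes, against 242 and 189 (3T3-L1), 134 (3T3-F442A), 208 (Ob1774) and 218 (Hgfu) kU in the preadipocytes (0.92 ± 0.27, adjusted p = 0.182). Vamp2 gave -0.41 ± 0.17 (adjusted p = 0.404). Without adipocyte replicate 1 there was 1 call. These adipocytes had been kept with rosiglitazone, whose part was not tested. C2C12 myotubes also differed from myoblasts in serum (4% against 10%). In C2C12 myotubes over myoblasts, 0.156% of all spots were called, and 10 of 66 genes and 9.50% of all spots had an unadjusted p under 0.05. Gosr2 had 46.7 and 48.3 kU in myotubes, against 91.0, 79.1 and 83.2 kU in myoblasts (-0.51 ± 0.12, adjusted p = 0.0635). Copz2 had 125 and 278 kU in myotubes, against 579, 472 and 346 kU in myoblasts (-1.12 ± 0.32, adjusted p = 0.211). Neither gene overlapped between the groups. There were 4 calls without myotube replicate 2, 1 without myoblast replicate 3 and none without the other arrays.

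The 5 remaining comparisons gave no call either. In tibialis over myotubes (0.885% of all spots called, 9 of 66 genes and 8.80% of all spots at an unadjusted p under 0.05) the smallest p-values were those of Vps37c (-0.43 ± 0.13, adjusted p = 0.160) and Rab5c (-0.46 ± 0.15, adjusted p = 0.210), and 5 genes were called without myotube replicate 2. In peritoneal macrophages over stroma-vascular cells (0.434% called, 2 of 66 and 5.16%) they were those of Vti1b (-0.31 ± 0.12, adjusted p = 0.641) and Gosr2 (-0.24 ± 0.10, adjusted p = 0.745). In peritoneal macrophages over the preadipocyte lines (0.573% called, 7 of 66 and 9.86%) they were those of Gosr2 (-0.35 ± 0.10, adjusted p = 0.101) and Ap3m1 (0.46 ± 0.15, adjusted p = 0.223). In stroma-vascular cells over the preadipocyte lines (0.174% called, 4 of 66 and 7.74%) they were those of Vti1b (0.44 ± 0.11, adjusted p = 0.148) and Copa (0.69 ± 0.26, adjusted p = 0.508). In ES cells with LIF over the mesenchymal lines (0.226% called, 4 of 66 and 4.58%) they were those of Arf4 (-0.71 ± 0.19, adjusted p = 0.151) and Copz2 (-0.76 ± 0.24, adjusted p = 0.410).

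Around these genes, 77 other measured genes of the same routes were read from 7 lists. The F test called 2 of them (2.60%, against 9.84% of all spots), among them Cav2, a component of caveolae (adjusted p = 0.0163). The lists held 11 Rab regulators and effectors, 10 Arf regulators and effectors, 10 other SNAREs and fusion factors, 8 genes of clathrin, dynamin and endocytosis, 9 of transport between the endoplasmic reticulum and the Golgi, 16 of ESCRT, exocyst and late endosomes and 13 other small GTPases. The 12 comparisons called 2 of these genes, both higher in peritoneal macrophages than in the macrophage lines. That is 2.60%, a share near the 2.73% of all spots called there. Snap23, the widely expressed plasma membrane SNARE with which VAMP proteins pair, was higher by 0.82 ± 0.21 (adjusted p = 0.0307). Agap1, a GTPase-activating protein for Arf that binds AP-3, was higher by 0.70 ± 0.19 (adjusted p = 0.0365). The F test called neither gene (adjusted p = 0.0791 and 0.157). They were not refitted without single arrays or under the alternatives, and a link to Vamp2 or Ap3m1 was not tested.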

How the data were processed

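RNA was hybridized to nylon filters of spotted cDNA, 1 array per sample. The deposited values are array intensities per spot, on a linear scale per the file headers and from the values, and neither labels nor headers state any earlier step. A platform table gave 1 gene symbol to 3420 spots, several to 98 and none to 2242, and 3346 of the first were matched by gene ID to RefSeq. The intensities of 37 arrays were quantile-normalized with limma 3.58.1 (R 4.3.3) and tested as log2(intensity + 38.4 kU, 1 kU being 1000 units), the offset being the 10th percentile of all values. The 2 samples of 3T3-L1 were averaged, and 36 columns in 13 groups were fitted with lmFit and eBayes (23 residual and 7.77 prior degrees of freedom). A moderated F test and 12 two-sided contrasts were adjusted by Benjamini-Hochberg over 5760 spots, each contrast by itself, and called at 0.05. The code was tested on simulated data.

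The deviations of same-numbered stroma-vascular and adipocyte samples correlated with r = 0.257, 0.103 and 0.378, and the numbers were taken as pairs for the block. In the other comparisons such correlations lay between -0.107 (liver with tibialis) and 0.151 (peritoneal macrophages with J774). Deviations within a group depend on each other, so these values do not establish pairs. The labels do not say that same-numbered stroma-vascular and adipocyte samples came from the same mice. Members and lists were chosen with earlier results of these data known. The genes named are every one called in a contrast, with values in every sample for up to 3 per contrast, and the 2 smallest p-values where none was called. Other normalizations, offsets, background, filters, arrays and fits were tried as alternatives. ES cells without LIF entered no test, because the 99th percentile over the median was 60.0 to 391 there and 3.87 to 17.5 on the 37 arrays used. The number of arrays limits the precision: the median standard error of a gene's fold change was 0.10 to 0.17 by contrast. One gene outside the 66 that the F test called is not reported here.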

Additional observations from a re-analysis of the deposited data

Results flagged for a closer look

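Among the 4 preadipocyte lines, 1 line lay far from the other 3 in 3 of the 66 genes tested for this by Dixon's criterion (the gap to the nearest line as a share of the range), which chance gives in about 1 of 20 genes. These 3 are 4.55% of the 66, against 5.30% of all spots, so their number is near that of the array as a whole. Copz2 was 134 kU in 3T3-F442A preadipocytes, against 208 to 218 kU in the other lines. Rab31 was 51.1 kU in Hgfu, against 83.8 to 91.9 kU in the others, and Trappc3 was 77.0 kU in Ob1774, against 48.3 to 51.4 kU in the others.

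The change of Copz2 differed between the adipogenic and the myogenic series. It was 0.92 in 3T3-F442A adipocytes over the preadipocyte lines and -1.12 in C2C12 myotubes over myoblasts, and the difference of 2.04 ± 0.41 (SE) was called (limma, adjusted p = 0.0130), where 14 of 5760 spots, or 0.243%, were called. No other gene of the 66 was called. This test was chosen after the data were seen, and the adipogenic baseline is 4 lines of which 3T3-F442A is one. Serum was 4% for the myotubes and 10% for the other groups of this test. Of these groups, rosiglitazone is named for the 3T3-F442A adipocytes only. The parts of serum and drug in the difference were not tested.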

How the results depend on the processing

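No called fold change of the 11 reversed its sign under any alternative run, but their sizes moved, as given in the report. Of 211 recomputed values of these 11, 151 stayed called and 60 lost the call, and of 562 recomputed F tests of the 12 genes, 504 stayed called. Copz2 and Vamp2 in isolated over 3T3-F442A adipocytes stayed called in each of 12 alternatives and 6 fits without an array. Copz2, Gosr2 and Snf8 stayed called by the F test in each alternative and each of 37 fits without an array. With median scaling, Arf4, Snx12, Snx13 and Vps37c were not called (adjusted p = 0.0811, 0.0856, 0.208 and 0.0958). With the 5th percentile subtracted, Vamp2, Ap3m1, Snx9, Snx12, Snx13, Trappc13 and Vti1b were not (0.0945, 0.166, 0.0787, 0.109, 0.0802, 0.0933 and 0.0770). Vps37c was not called with a floor (0.0823) or with a local trend removed (0.0801), nor Vti1b with a trended robust variance (0.101). Without both liver arrays, Snx12, Snx13 and Vti1b were not called (0.0566, 0.0594 and 0.0657). Keeping bright spots only left 42 of the 66 genes.

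Numbers of the 66 genes called moved as follows, and the cause was not tested. With the 5th percentile of each array subtracted, they were 5 for the F test (12 in the report), 2 for isolated over 3T3-F442A adipocytes (4 in the report), 2 for liver over tibialis, 0 for macrophage lines over mesenchymal lines, 0 for peritoneal macrophages over macrophage lines and 1 for peritoneal macrophages over preadipocyte lines. With median scaling, they were 8 for isolated over 3T3-F442A adipocytes, 0 for liver over tibialis, 1 for peritoneal macrophages over macrophage lines and 1 for stroma-vascular cells over preadipocyte lines. With all 40 arrays, they were 1 for myotubes over myoblasts (Gosr2), 2 for liver over tibialis and 2 for macrophage lines over mesenchymal lines. A floor gave 2 for liver over tibialis, 4 times the offset 2 for macrophage lines over mesenchymal lines, removal of a local trend 0 and 2 for these, the mean of a gene's spots 0 for macrophage lines over mesenchymal lines, and a trended robust variance 2 for peritoneal macrophages over macrophage lines. With the compared groups alone, they were 8 for isolated over 3T3-F442A adipocytes, 0 for liver over tibialis, 0 for macrophage lines over mesenchymal lines and 2 for stroma-vascular cells over isolated adipocytes. Leaving out both liver arrays, an alternative chosen after the data were seen, gave 1 for stroma-vascular cells over preadipocyte lines.

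With the compared groups alone and the replicate number as a block, 5 were called in stroma-vascular cells over isolated adipocytes, where the numbers were taken as pairs. In the other comparisons the numbers were not taken as pairs, and the block gave 0 for liver over tibialis, 3 for tibialis over myotubes, 0 for myotubes over myoblasts, 6 for isolated over 3T3-F442A adipocytes, 4 for peritoneal macrophages over macrophage lines and 0 for peritoneal macrophages over stroma-vascular cells. Leaving out each array in turn, the numbers called ranged from 9 to 15 for the F test, 0 to 5 for peritoneal macrophages over macrophage lines, 2 to 7 for isolated over 3T3-F442A adipocytes, 0 to 4 for liver over tibialis, 0 to 2 for macrophage lines over mesenchymal lines. They ranged from 0 to 4 for myotubes over myoblasts, 0 to 5 for tibialis over myotubes, 0 to 1 for 3T3-F442A adipocytes over preadipocyte lines, and 0 to 0 for the other 5.

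Precision is limited by groups of 2 arrays, by the background left in every value and by dim spots. For 3 of the 4 genes with a second spot, that spot did not follow the first.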

Other observations

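The ES cells grown without LIF could not be set on the scale of the other arrays, so each spot was ranked within its own array. The percentile ranks without and with LIF did not overlap in 15 of the 66 genes (22.7%), where they did not overlap in 16.0% of all spots. Of these 15, 8 ranked higher without LIF and 7 lower. The widest differences in mean rank are given, 2 in each direction. Arf3, a Golgi GTPase, ranked at 74.4, 24.8 and 44.6 without LIF, against 11.8, 3.99 and 5.47 with LIF. Vps26c ranked at 61.1, 21.7 and 38.7 without LIF, against 6.49, 15.3 and 11.4 with LIF. Trappc13 ranked lower, at 30.3, 37.5 and 48.2 without LIF, against 78.5, 82.6 and 89.5 with LIF, and so did Trappc9, at 11.3, 43.4 and 8.70 without LIF, against 49.97, 58.0 and 74.2 with LIF. The spots of Arf3 and Vps26c were dim over the 37 tested arrays (brightness percentiles 1.875 and 8.40), so their low ranks lie among spots near background. The second Trappc13 spot did not follow the one ranked here (r = -0.01 over the 13 group means). These genes were chosen for display after their ranks were seen, and ranks from arrays that hold values of different kinds are given as values, with no test.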
